A study of Mus musculus with 16 samples.

Results

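Oxidative phosphorylation passes electrons from food molecules to oxygen through 4 protein complexes of the inner mitochondrial membrane and uses the resulting proton gradient to make ATP in complex V, the ATP synthase. The genes of these complexes were taken by symbol alone: the Nduf subunit series (complex I), Sdha to Sdhd (complex II), the Uqcr series (complex III), the Cox4 to Cox8 series (complex IV), the Atp5 series (complex V), and the mitochondrially encoded mt-Nd, mt-Co, mt-Cytb and mt-Atp genes. The rule used no measured value. It found 99 members among 25719 listed genes, of which 86 are nuclear and 13 lie in mitochondrial DNA. Complex I held 43 members (36 nuclear, 7 mitochondrial), complex II 4, complex III 9 (8 and 1), complex IV 23 (20 and 3) and complex V 20 (18 and 2). Ndufa4 and Ndufa4l2 were counted with complex IV, where the NDUFA4 protein is found, although their symbols carry the complex I prefix. Of the 99 members, 96 (83 nuclear, 13 mitochondrial) passed the filter on low counts and were tested. The other 3, Cox7b2, Cox8b and Cox8c, are described by their counts.

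Complex I takes electrons from NADH and complex II takes them from succinate. Complex III hands them to cytochrome c, and complex IV gives them to oxygen. Mitochondrial DNA encodes core membrane subunits of complexes I, III, IV and V, whereas complex II is wholly nuclear, so a working chain needs transcripts from both genomes. Sensory neurons of the trigeminal ganglion, which serve the face, have long axons whose ion pumping and transport draw on this ATP.

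Whole trigeminal ganglia came from 4 groups of mice with 4 libraries each: Nogo-A KO at postnatal day 25 (P25), Wild-type (WT) at P25, Nogo-A KO at embryonic day 14 (E14) and WT at E14. Rtn4 encodes several proteins, and Nogo-A, the longest of them, is best known for holding back the growth of neurites. The sources used here name neither strain, allele nor sex. Each library was 1 ganglion and 4 animals per group are stated, but in 2 cases, E14 WT 2 and 4 and E14 KO 1 and 3, the library names hold the same animal number followed by R or L, which may mean a pair of ganglia from the same embryo. The p-values measure the spread between these ganglia. The gene total of Rtn4 also counts its shorter products and so does not check the labels: it stood at 345 to 384 CPM in P25 KO against 406 to 542 CPM in P25 WT, and at 236 to 405 CPM in E14 KO against 144 to 521 CPM in E14 WT. CPM, the usual depth-scaled counts, were computed on TMM-scaled library totals.

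Libraries held 15532373 to 29562379 counts. Nuclear members took 0.902 to 1.83% of them and mitochondrial members 0.165 to 1.37%. Some libraries lay apart from their group in these genes. P25 WT 4 had a nuclear sum of 18698 CPM against 11395 to 13690 CPM in the other P25 WT libraries. E14 WT 2 had a mitochondrial sum of 1925 CPM against 5637 to 8629 CPM in the other E14 WT libraries. E14 KO 4 was also low, with a mitochondrial sum of 3828 CPM against 8389 to 10782 CPM in the other E14 KO libraries. Results are also given without P25 WT 4 and E14 WT 2, a choice made after seeing the data. E14 KO 4 was kept in those fits, so they leave out WT libraries only. The tissue's defining genes were present in every library: the 20 sensory neuron markers summed to 21920 to 23860 CPM in P25 KO, 22163 to 26553 CPM in P25 WT, 19711 to 22288 CPM in E14 KO and 18274 to 22909 CPM in E14 WT. The 15 satellite glia markers summed to 6816 to 9082 CPM in P25 KO and 6133 to 8896 CPM in P25 WT, against 1867 to 2207 CPM in E14 KO and 1848 to 2280 CPM in E14 WT. The 15 Schwann cell and myelin markers summed to 23580 to 47194 CPM in P25 KO and 30444 to 35527 CPM in P25 WT, against 992 to 1205 CPM in E14 KO and 935 to 1498 CPM in E14 WT. The part of this change in cell makeup in the stage differences below was not tested. In whole ganglia, fewer cells of a type and less RNA per cell cannot be told apart.

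**Figure D1:**
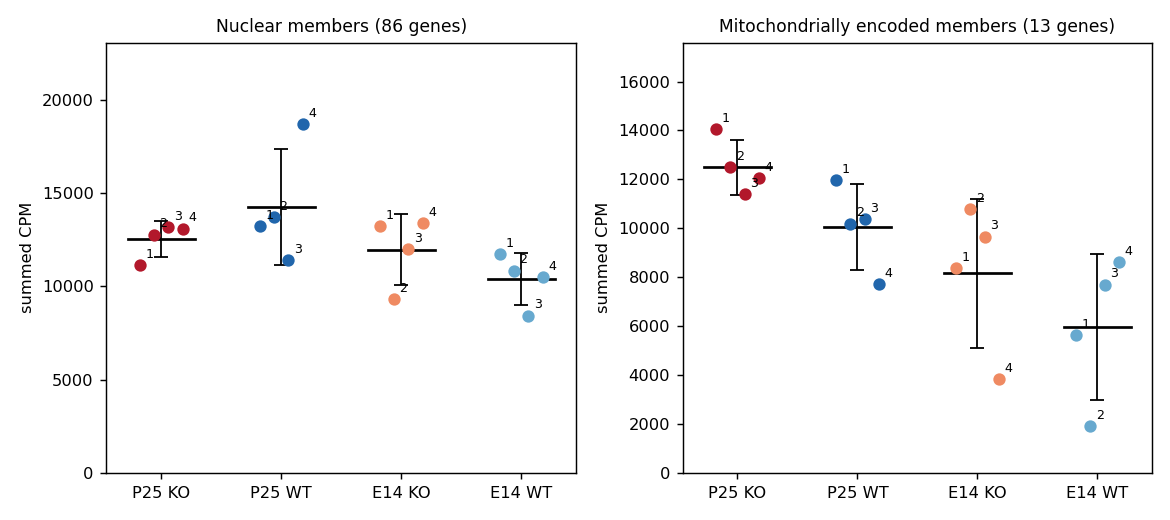
Summed level of the 86 nuclear members (left) and the 13 mitochondrially encoded members (right) in each of the 16 libraries, in CPM, by group. Numbered points are libraries, long bars are group means and error bars are 1 SD. P25 WT 4 is the highest nuclear point at 18698 CPM and E14 WT 2 the lowest mitochondrial point at 1925 CPM.

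The nuclear members summed to 12544 ± 948 CPM in P25 KO and 14257 ± 3123 CPM in P25 WT, against 11971 ± 1886 CPM in E14 KO and 10378 ± 1401 CPM in E14 WT (SD, n = 4 each). Mitochondrial members summed to 12495 ± 1133 CPM in P25 KO and 10073 ± 1757 CPM in P25 WT, against 8165 ± 3052 CPM in E14 KO and 5972 ± 2974 CPM in E14 WT. The nuclear sums of P25 and E14 libraries overlapped in both genotypes. The mitochondrial sums of P25 KO lay above those of E14 KO without overlap, at 11384 to 14052 CPM against 3828 to 10782 CPM, and those of P25 WT and E14 WT overlapped, at 7726 to 11981 CPM against 1925 to 8629 CPM.

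At the level of single transcripts, the mitochondrial genes led the set. Per kilobase of transcript, mt-Cytb stood at 2718 CPM per kb in P25 KO and 2433 in P25 WT, against 1738 in E14 KO and 1240 in E14 WT. mt-Nd1 followed at 2470 CPM per kb in P25 KO, 1893 in P25 WT, 2010 in E14 KO and 1268 in E14 WT. mt-Co1, the catalytic subunit of complex IV, stood at 2009 CPM per kb in P25 KO, 1639 in P25 WT, 1336 in E14 KO and 1101 in E14 WT. These genes held the first 3 places in every group, with mt-Nd1 ahead of mt-Cytb at E14 and behind it at P25. Within each group the library ranges of neighbours in this order overlapped. At P25 the range of mt-Cytb per kilobase lay above that of mt-Co1 in both genotypes. The order was not tested. The highest nuclear member per kilobase in every group was Atp5b, the catalytic beta subunit of the ATP synthase, at 840 CPM per kb in P25 KO, 951 in P25 WT, 845 in E14 KO and 821 in E14 WT. Cox4i1, the largest nuclear subunit of complex IV, was next among nuclear members at 779, 892, 735 and 629 CPM per kb in the same groups.

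**Figure D2:**
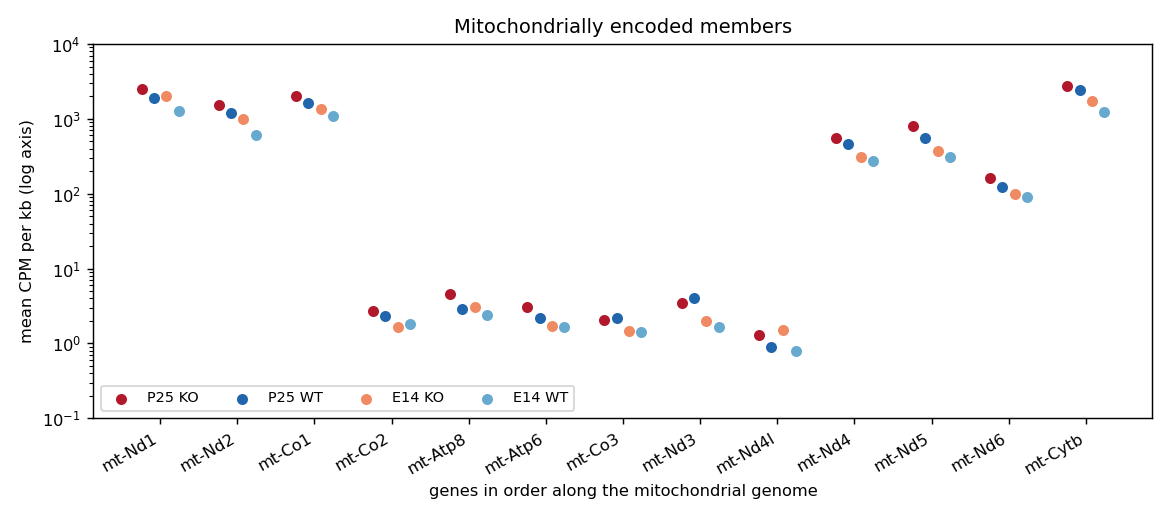
Mean level, in CPM per kilobase of transcript, of the 13 mitochondrially encoded members in each group, on a log axis, in their order along mitochondrial DNA. The 6 neighbouring genes from mt-Co2 to mt-Nd4l lie far below the 7 others in all 4 groups.

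A run of 6 neighbouring mitochondrial genes was almost without counts. mt-Co2, mt-Atp8, mt-Atp6, mt-Co3, mt-Nd3 and mt-Nd4l, which encode subunits of complexes IV, V and I, stood at 0 to 2.50 CPM in every library, and the other 7 genes at 20.1 to 3640 CPM. In the GRCm38 transcripts, 5 of these 6 have a near-identical nuclear copy on chromosome 1: Gm28661 matches mt-Co2 at 100% of bases, Gm10925 matches mt-Atp6, Gm28437 matches mt-Co3, Gm10222 matches mt-Nd4l, and Gm28438 matches mt-Nd3 at 99.71%. No such copy was found for the sixth, mt-Atp8. It lies at bases 7766 to 7969 of the mitochondrial DNA and overlaps mt-Atp6, at 7927 to 8607, only at its end. The 5 copies are not among the listed genes and so have no counts here, and whether reads were shared with them was not tested. Values of the 6 genes are therefore uncertain, and differences in them as single genes are given only in passing. They remain among the 13 genes of every mitochondrial median and count below, so those share this uncertainty. Medians over the 7 other genes alone were not computed. mt-Nd4 shares 63.6% of its length with the copy Gm28439 and mt-Co1 matches Gm13340 at 97.61%, and both are among the 7 genes with higher counts.

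The comparison of P25 with E14 shows how the set changed as the ganglion matured. In KO ganglia, 14 of 96 tested members were higher at P25 than at E14 and 4 were lower, at an edgeR adjusted p under 0.05. Over all 15109 tested genes, 30.6% were higher and 29.2% lower. In WT ganglia, 50 of 96 members were higher at P25 and 0 were lower, where 29.7% of all genes were higher and 29.8% lower. Counted in either direction, 18.8% of members were called in KO against 59.8% of all genes, and 52.1% in WT against 59.6%. The median log2 fold change of the nuclear members was 0.14 in KO and 0.65 in WT, and that of the mitochondrial members was 0.66 in KO and 0.57 in WT, beside medians over all genes of 0.01 and 0.00. In KO, 17 members had every P25 library above every E14 library (30.5% of all genes) and 2 had every P25 library below (29.3%). In WT, 33 members had every P25 library above every E14 library (26.1% of all genes), and 0 had every P25 library below (24.2%).

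Both genotypes shared 13 members called higher, which is 92.9% of the KO list and 26% of the WT list. Over all genes the shared calls made up 84.2% of the KO list and 86.6% of the WT list. The test of the difference between the 2 stage effects, the stage by genotype interaction, called 0 members, so the larger WT count is not shown to be a difference between genotypes. Without P25 WT 4 and E14 WT 2 the counts moved towards each other, with 25 members higher and 6 lower in KO and 39 higher and 2 lower in WT. With offsets for length and GC content centred on all libraries, the mitochondrial medians turned to -0.17 in KO and -0.0432 in WT.

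**Figure D3:**
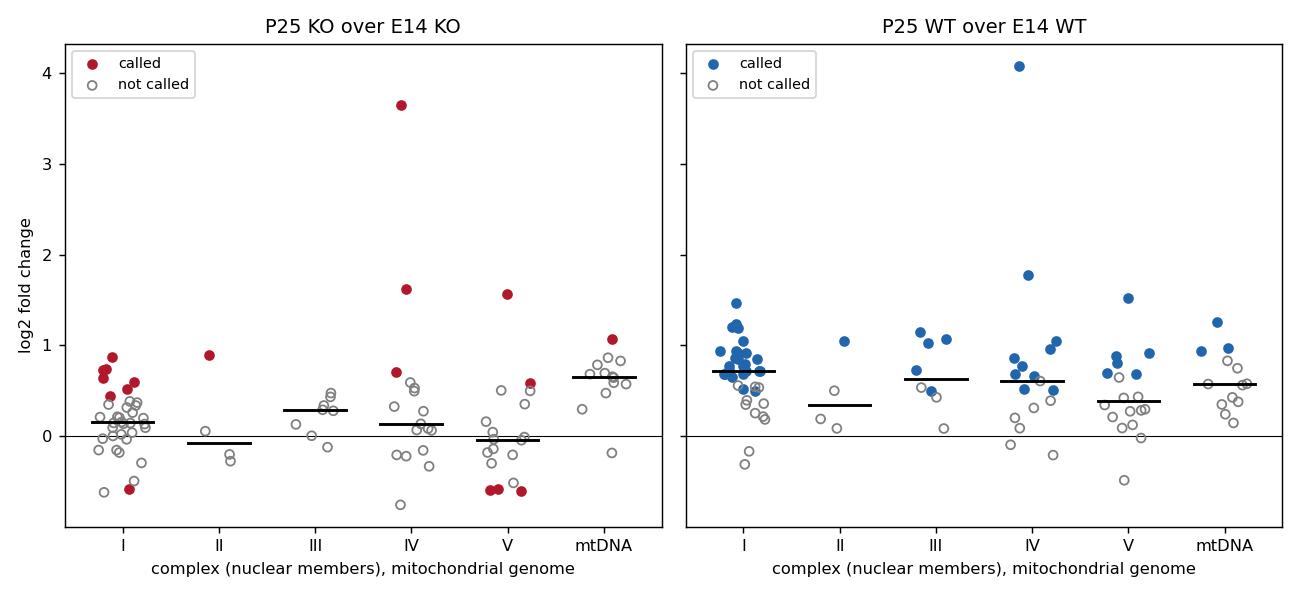
Log2 fold change of each tested member between P25 and E14, in KO and in WT, by complex and genome; filled points passed an edgeR adjusted p under 0.05 and black bars are medians. The highest point of complex IV is Cox6a2, whose fitted value rests on few counts. Nuclear members of complex I sit mostly above 0 in WT, with 25 of 36 called, and nearer to 0 in KO, with 7 higher and 1 lower.

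Complex by complex, the calls were counted among nuclear genes. In KO, 7 of its 36 nuclear members were higher and 1 lower (median 0.15), and in WT 25 were higher (median 0.72). Complex II had 1 of 4 members higher in each genotype. Of the 8 nuclear genes of complex III, 0 were called in KO (median 0.29) and 5 were higher in WT (median 0.63). Of the 17 tested nuclear genes of complex IV, 3 were higher in KO (median 0.14) and 10 in WT (median 0.61). In complex V, 2 of 18 nuclear genes were higher and 3 lower in KO (median -0.04), and 6 were higher in WT (median 0.38). Beside these counts stand 30.6% higher and 29.2% lower among all genes in KO and 29.7% and 29.8% in WT, so the WT counts of complexes II and V were near or below the background.

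The promoters of the nuclear members were read for motifs of factors known for respiratory genes. RefSeq promoters on GRCm38.p6, from 250 bases before to 50 after the gene start, were found for 66 of 85 nuclear symbols. Matches to the NRF1 motif are in capitals in the sequences shown here, and all motifs were searched on both strands. A gene was counted once if any of its promoters held the motif. The NRF1 motif was in 17 of the 66 genes (25.8%) and in 1402 of all 27025 genes with a promoter (5.19%). The YY1 motif AAGATGGC was in 9 (13.6%, against 3.19% of all), the ETS motif ACTTCCGG in 5 (7.58%, against 4.31%), and the GC box GGGCGG in 26 (39.4%, against 38.2%). Of 38 members with a promoter that were called higher in WT at P25, 28.9% held the NRF1 motif, as did 21.4% of the 28 other members with a promoter. A match describes the letters only and is not a binding site.

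Promoters of 4 members are shown 5′ to 3′ on the strand of the gene, with NRF1 motifs in capitals, because these genes cover the patterns described below: Sdha rose in both genotypes, Ndufs5 and Ndufb4 were called in WT alone, and Cox7a1, a muscle isoform of complex IV, rose in both and has no NRF1 motif in this window. Positions are Sdha chr13:74350191-74350490 (minus strand), Ndufs5 chr4:123718137-123718436 (minus), Ndufb4 chr16:37654319-37654618 (minus) and Cox7a1 chr7:30183921-30184220 (plus). The motif occurs 3 times in Sdha, 3 times in Ndufb4 and 1 time in Ndufs5.
Sdha: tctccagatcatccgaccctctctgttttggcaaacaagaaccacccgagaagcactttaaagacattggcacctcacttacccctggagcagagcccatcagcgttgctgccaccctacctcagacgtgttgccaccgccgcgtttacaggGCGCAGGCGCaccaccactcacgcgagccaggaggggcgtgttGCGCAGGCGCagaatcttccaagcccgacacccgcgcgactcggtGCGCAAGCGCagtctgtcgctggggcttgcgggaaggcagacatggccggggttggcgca
Ndufs5: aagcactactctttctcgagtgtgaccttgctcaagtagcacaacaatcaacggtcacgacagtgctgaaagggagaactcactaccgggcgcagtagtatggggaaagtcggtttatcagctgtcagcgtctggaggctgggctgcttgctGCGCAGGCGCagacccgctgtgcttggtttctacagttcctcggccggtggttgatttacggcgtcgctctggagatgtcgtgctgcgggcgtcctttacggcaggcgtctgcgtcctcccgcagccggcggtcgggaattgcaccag
Ndufb4: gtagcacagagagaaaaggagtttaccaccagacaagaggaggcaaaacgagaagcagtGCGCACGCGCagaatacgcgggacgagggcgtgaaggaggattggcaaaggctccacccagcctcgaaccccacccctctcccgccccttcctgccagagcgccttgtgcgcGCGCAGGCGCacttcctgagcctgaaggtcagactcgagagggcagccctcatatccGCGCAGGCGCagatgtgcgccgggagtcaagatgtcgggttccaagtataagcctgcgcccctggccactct
Cox7a1: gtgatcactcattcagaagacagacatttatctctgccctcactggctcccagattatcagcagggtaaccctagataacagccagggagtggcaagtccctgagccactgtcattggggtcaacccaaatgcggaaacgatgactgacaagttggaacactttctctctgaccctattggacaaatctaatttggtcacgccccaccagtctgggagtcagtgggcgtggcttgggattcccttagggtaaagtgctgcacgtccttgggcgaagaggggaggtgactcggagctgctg

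Sdha, the flavoprotein of complex II that oxidises succinate and the gene of the first promoter shown, gave the smallest p of all members in both genotypes. Its level was 301, 297, 352 and 314 CPM in P25 KO libraries, against 157, 159, 183 and 183 CPM in E14 KO libraries. In P25 WT it was 373, 325, 339 and 313 CPM, against 183, 148, 148 and 175 CPM in E14 WT. Every P25 library exceeded every E14 library of its genotype. The log2 fold change was 0.89 (edgeR, SE 0.14, adjusted p = 1.51e-05) in KO and 1.05 (edgeR, SE 0.14, adjusted p = 2.12e-06) in WT. The 3 other subunits of complex II did not pass the test in either genotype. Sdhb, the iron-sulfur subunit, had a log2 fold change of -0.27 (edgeR, SE 0.21, adjusted p = 0.266) in KO and 0.19 (edgeR, SE 0.21, adjusted p = 0.450) in WT. Sdhc and Sdhd, the membrane anchors, had log2 fold changes of -0.20 and 0.06 in KO and of 0.09 and 0.50 in WT, with ranges that overlapped between stages.

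Among the core subunits of complex I, Ndufs1, the large iron-sulfur subunit of the electron-entry arm, stood at 94.1, 100.4, 91.6 and 115 CPM in P25 KO against 60.1, 79.1, 68.7 and 71.4 CPM in E14 KO. The values in P25 WT were 99.6, 116, 91.7 and 113 CPM against 67.9, 38.8, 68.9 and 80.7 CPM in E14 WT. The stages did not overlap in either genotype. Ndufs1 rose by a log2 fold change of 0.52 (edgeR, SE 0.19, adjusted p = 0.0211) in KO and 0.71 (edgeR, SE 0.19, adjusted p = 0.00265) in WT, and the KO call was lost without E14 KO 1 (edgeR adjusted p = 0.0677) or P25 KO 4 (0.057). Ndufv1, which binds the NADH, overlapped between stages at 232 to 287 CPM in P25 KO against 164 to 268 CPM in E14 KO, and at 240.3 to 355 CPM in P25 WT against 156 to 267 CPM in E14 WT. Its log2 fold change was 0.20 (edgeR, SE 0.20, adjusted p = 0.410) in KO and 0.40 (edgeR, SE 0.20, adjusted p = 0.0997) in WT. Ndufs7, an iron-sulfur subunit near the quinone site, rose by 0.73 (edgeR, SE 0.25, adjusted p = 0.0147) in KO and 0.94 (edgeR, SE 0.25, adjusted p = 0.00289) in WT.

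Ndufb3, an accessory subunit of the membrane arm of complex I, was the nuclear member of that complex with the largest called change in both genotypes. It stood at 57.5, 54.2, 62.2 and 60.4 CPM in P25 KO against 46.6, 22.2, 33.1 and 26.2 CPM in E14 KO. For WT, P25 ganglia had 72.1, 58.2, 66.7 and 77.5 CPM against 29.4, 21.8, 20.6 and 27.3 CPM in E14 WT. No P25 library fell within the E14 range of its genotype. The log2 fold change was 0.87 (edgeR, SE 0.20, adjusted p = 9.04e-04) in KO and 1.47 (edgeR, SE 0.20, adjusted p = 3.71e-06) in WT. Ndufa5, Ndufa13 and Ndufa6, further accessory subunits, rose in both genotypes, with log2 fold changes of 0.74, 0.64 and 0.60 in KO and of 1.19, 1.05 and 0.94 in WT. These 3 genes, Ndufs7 above and, further on, Ndufv3 and both Atp5o entries lie outside the rule for named genes and were chosen after their values were seen.

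Other accessory subunits were called in WT and not in KO. Ndufb4, a membrane-arm subunit whose promoter is among those shown, stood at 41.9, 44.7, 59.6 and 43.8 CPM in P25 KO against 58.8, 20.4, 31.6 and 35.0 CPM in E14 KO, with overlap. WT ganglia at P25 held 72.4, 50.6, 45.0 and 65.0 CPM against 26.8, 25.1, 16.3 and 30.2 CPM in E14 WT, without overlap. E14 KO 1, at 58.8 CPM, was the high library of its group. The log2 fold change was 0.38 (edgeR, SE 0.26, adjusted p = 0.210) in KO and 1.24 (edgeR, SE 0.26, adjusted p = 4.51e-04) in WT. Ndufs5, an intermembrane-space subunit, stood at 67.7, 54.2, 85.4 and 60.2 CPM in P25 KO against 76.8, 33.8, 67.5 and 45.4 CPM in E14 KO. P25 WT libraries had 128, 69.8, 79.1 and 84.0 CPM against 44.2, 39.2, 34.4 and 38.4 CPM in E14 WT, and all 4 P25 WT libraries exceeded all 4 E14 WT libraries. Its log2 fold change was 0.26 (edgeR, SE 0.24, adjusted p = 0.352) in KO and 1.21 (edgeR, SE 0.24, adjusted p = 2.19e-04) in WT. Ndufa1 had a log2 fold change of -0.03 (edgeR, SE 0.24, adjusted p = 0.933) in KO, a sign that other scalings turned, and rose by 0.92 (edgeR, SE 0.24, adjusted p = 0.00264) in WT. Ndufa3 and Ndufa12 also rose in WT, by 0.85 and 0.68, with log2 fold changes of 0.16 and -0.03 in KO.

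Ndufv3, an accessory subunit of the electron-entry arm, was the 1 member of complex I called lower at P25, and it was called in KO alone. It stood at 121, 125, 152 and 125 CPM in P25 KO against 237, 131, 198 and 213 CPM in E14 KO. The values in P25 WT were 129.9, 136, 110.1 and 176 CPM against 174, 152, 127 and 167 CPM in E14 WT. In KO only E14 KO 2, at 131 CPM, lay within the P25 range, and in WT the stages overlapped. The log2 fold change was -0.58 (edgeR, SE 0.19, adjusted p = 0.0115) in KO and -0.17 (edgeR, SE 0.19, adjusted p = 0.458) in WT.

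Uqcrc1 and Uqcrc2, the large matrix-side subunits of complex III, had log2 fold changes of 0.43 (edgeR, SE 0.19, adjusted p = 0.0611) and 0.01 (edgeR, SE 0.18, adjusted p = 0.983) in KO. In WT they were 0.43 (edgeR, SE 0.19, adjusted p = 0.0642) and 0.50 (edgeR, SE 0.18, adjusted p = 0.0194), so only Uqcrc2 in WT passed the test. Uqcrfs1, the Rieske iron-sulfur protein, had log2 fold changes of -0.12 in KO and 0.08 in WT, with overlapping stages. Small subunits were called in WT. Uqcrb stood at 43.9, 36.1, 40.0 and 40.7 CPM in P25 KO against 42.0, 28.8, 36.7 and 19.8 CPM in E14 KO. For WT, P25 ganglia had 58.7, 43.8, 46.0 and 54.4 CPM against 23.2, 18.9, 22.7 and 26.4 CPM in E14 WT. The stages overlapped in KO and were separate in WT. Uqcrb had a log2 fold change of 0.34 (edgeR, SE 0.20, adjusted p = 0.148) in KO, where leaving out E14 KO 1 brought it to 0.50 (edgeR adjusted p = 0.0454), and rose by 1.15 (edgeR, SE 0.20, adjusted p = 5.83e-05) in WT. Uqcrh, the acidic hinge protein of complex III, rose by 1.03 (edgeR, SE 0.22, adjusted p = 4.65e-04) in WT, and Uqcr10 by 1.07 (edgeR, SE 0.29, adjusted p = 0.00336). In KO these had log2 fold changes of 0.28 and 0.48 and were not called.

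In complex IV, Cox4i1 and Cox5a are constitutive nuclear subunits. Cox4i1 stood at 460.3, 534, 552 and 517 CPM in P25 KO against 501, 367, 486 and 592 CPM in E14 KO. WT ganglia at P25 held 521, 551, 449 and 842 CPM against 479, 499, 303 and 383 CPM in E14 WT. P25 WT 4 was the high library and the stages overlapped in both genotypes. The log2 fold change was 0.08 (edgeR, SE 0.20, adjusted p = 0.738) in KO and 0.50 (edgeR, SE 0.20, adjusted p = 0.0384) in WT, and without P25 WT 4 the WT call was lost at 0.29 (edgeR adjusted p = 0.204). It was also lost without E14 WT 3 (edgeR adjusted p = 0.0738). Cox5a, at 0.69 in WT, was likewise lost without P25 WT 4 (edgeR adjusted p = 0.209) or P25 WT 2 (0.062), and so were the WT calls of Cox6a1 (0.16) and Ndufa4 (0.0793) without P25 WT 4. Cox7b, a small subunit, stood at 59.5, 76.7, 47.9 and 91.2 CPM in P25 KO against 52.2, 41.7, 33.3 and 41.2 CPM in E14 KO, and at 58.7, 74.9, 52.3 and 110.0 CPM in P25 WT against 32.5, 20.9, 35.7 and 53.9 CPM in E14 WT. Its stages overlapped in both genotypes. It rose by 0.71 (edgeR, SE 0.27, adjusted p = 0.0309) in KO, a call lost on leaving out any 1 of E14 KO 2, 3 and 4 and P25 KO 2 and 4 (edgeR adjusted p 0.0553 to 0.107), and by 1.05 (edgeR, SE 0.27, adjusted p = 0.00270) in WT. Cox6b1, Cox7a2 and Cox7a2l, the last a factor that joins complexes III and IV, were not called in either genotype.

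In complex V, the catalytic core did not pass the test. Atp5a1, the alpha subunit, stood at 1130.3 to 1288 CPM in P25 KO against 1113 to 1395 CPM in E14 KO, and at 1268 to 1411 CPM in P25 WT against 1028 to 1401 CPM in E14 WT. Its log2 fold change was -0.14 (edgeR, SE 0.14, adjusted p = 0.413) in KO and 0.13 (edgeR, SE 0.14, adjusted p = 0.467) in WT. Atp5b had a log2 fold change of -0.01 (edgeR, SE 0.17, adjusted p = 0.969) in KO and 0.21 (edgeR, SE 0.17, adjusted p = 0.305) in WT, with overlapping stages. Atp5d, the delta subunit of the rotor stalk, stood at 420.3, 406, 481 and 388 CPM in P25 KO against 341, 209, 329 and 251 CPM in E14 KO. P25 WT libraries had 497, 323, 391 and 581 CPM against 267, 275, 198 and 208 CPM in E14 WT. The stages were separate in both genotypes. Atp5d rose by 0.59 (edgeR, SE 0.20, adjusted p = 0.0149) in KO and 0.92 (edgeR, SE 0.20, adjusted p = 5.09e-04) in WT. Atp5s, a coupling factor named for the ATP synthase, stood at only 7.78, 9.83, 7.99 and 11.7 CPM in P25 KO against 3.85, 3.73, 2.50 and 2.52 CPM in E14 KO. The values in P25 WT were 6.76, 10.7, 7.97 and 11.3 CPM against 3.90, 2.38, 3.41 and 3.07 CPM in E14 WT, again without overlap. Its log2 fold change was 1.56 (edgeR, SE 0.25, adjusted p = 2.10e-05) in KO and 1.52 (edgeR, SE 0.25, adjusted p = 2.78e-05) in WT.

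The 3 members of complex V called lower in KO were Atp5g2 and the 2 gene entries named Atp5o. Atp5o encodes the stator subunit that joins the catalytic head to the membrane part. The entry ENSMUSG00000022956 stood at 200.4 to 257 CPM in P25 KO against 262 to 403 CPM in E14 KO, without overlap, and fell by 0.59 on the log2 scale (edgeR adjusted p = 0.0243). The entry Atp5o ENSMUSG00000116933 fell by 0.58 (edgeR adjusted p = 0.0300), also without overlap. In WT their log2 fold changes were 0.09 and -0.02, and neither was called. Leaving out E14 KO 1 or 4, or P25 KO 1, 2 or 3, ended the KO call of both, as did leaving out E14 KO 3 for the second (edgeR adjusted p 0.0516 to 0.0963). The first entry matches the pseudogene Gm5436 at 97.02% and the second shares 54.2% of its transcript with Donson, so the counts of both are uncertain.

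Of the mitochondrial genes, mt-Nd5, a proton-pumping subunit of complex I, was the 1 called in KO. It stood at 1725, 1489, 1225 and 1352 CPM in P25 KO against 652, 977, 854 and 271 CPM in E14 KO. For WT, P25 ganglia had 1323, 1021, 1149.7 and 555 CPM against 497, 171, 744 and 865 CPM in E14 WT. The stages were separate in KO and overlapped in WT, where P25 WT 4 was low. The log2 fold change was 1.07 (edgeR, SE 0.39, adjusted p = 0.0241) in KO and 0.83 (edgeR, SE 0.39, adjusted p = 0.0741) in WT, and the KO call was lost without E14 KO 1 (edgeR adjusted p = 0.0536), E14 KO 4 (0.0747) or P25 KO 1 (0.0584).

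In WT, mt-Cytb, mt-Nd2 and mt-Nd3 were called. mt-Cytb, the core of complex III, stood at 3640.1, 2798, 2917 and 3083 CPM in P25 KO against 2029, 2380.4, 2597 and 946 CPM in E14 KO. WT ganglia at P25 held 3502, 2405, 3042 and 2184 CPM against 1310.0, 391, 1921 and 2053 CPM in E14 WT. The stages were separate in both genotypes, and E14 WT 2 was the lowest library. Its log2 fold change was 0.65 (edgeR, SE 0.36, adjusted p = 0.125) in KO and 0.97 (edgeR, SE 0.36, adjusted p = 0.0247) in WT, and the WT call was lost without E14 WT 1 (edgeR adjusted p = 0.0526) or P25 WT 1 (0.0712). mt-Nd2, a proton-pumping subunit of complex I, had log2 fold changes of 0.66 (edgeR, SE 0.37, adjusted p = 0.136) in KO and 0.94 (edgeR, SE 0.37, adjusted p = 0.0368) in WT. Leaving out any 1 of E14 WT 1 and 2 and P25 WT 1, 2 and 3 ended that WT call (edgeR adjusted p 0.0579 to 0.0961). mt-Nd3, at under 2 CPM in every library, was called in WT at 1.25 (edgeR, SE 0.53, adjusted p = 0.0467), a call lost on leaving out any 1 of 7 libraries: E14 WT 2 and 3, P25 KO 1 and 3, and P25 WT 1, 2 and 4 (edgeR adjusted p 0.0531 to 0.107).

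The other abundant mitochondrial genes were not called. mt-Nd1 stood at 1963 to 2832 CPM in P25 KO against 874 to 2637 CPM in E14 KO, and at 1424 to 2035 CPM in P25 WT against 389.7 to 1761 CPM in E14 WT, with log2 fold changes of 0.30 and 0.58. mt-Co1 had log2 fold changes of 0.59 (edgeR, SE 0.30, adjusted p = 0.0981) in KO and 0.57 (edgeR, SE 0.30, adjusted p = 0.107) in WT. For mt-Nd4 these were 0.86 and 0.75, and for mt-Nd6, the 1 member on the light strand, 0.69 and 0.43. Among the genes of the sparse run, mt-Atp6 had 0.83 in KO and 0.38 in WT, mt-Atp8 0.57 and 0.24, mt-Co2 0.68 and 0.35, mt-Co3 0.48 and 0.56, and mt-Nd4l -0.18 and 0.15. Without E14 WT 2 the mitochondrial median of the WT stage comparison was 0.30.

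Several subunits have isoforms that are known to differ between tissues, and some of their shares within a pair or trio of genes differed between the stages. The shares are a description and were not tested. Atp5g1, Atp5g2 and Atp5g3 encode the same mature subunit c, the ring of the ATP synthase, with different import sequences. Atp5g1 made up 33.3 to 37.3% of the counts of the trio in P25 KO and 32.7 to 39.4% in P25 WT, against 23.9 to 29.4% in E14 KO and 25.4 to 29.2% in E14 WT. Atp5g2 made up 9.67 to 12.1% in P25 KO and 9.59 to 10.7% in P25 WT, against 14.1 to 18.9% in E14 KO and 16.2 to 19.7% in E14 WT. For both genes the stages were separate in both genotypes, with Atp5g1 higher and Atp5g2 lower at P25. Atp5g3 averaged 53.1 ± 2.68% in P25 KO and 54.5 ± 3.29% in P25 WT, against 56.6 ± 3.66% in E14 KO and 54.5 ± 2.56% in E14 WT (SD, n = 4 each), and its stages overlapped.

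By their own levels, Atp5g1 had log2 fold changes of 0.50 (edgeR, SE 0.25, adjusted p = 0.0922) in KO and 0.69 (edgeR, SE 0.25, adjusted p = 0.0225) in WT, and the WT call was lost without P25 WT 4 (edgeR adjusted p = 0.2). Atp5g2 had -0.60 (edgeR, SE 0.24, adjusted p = 0.0389) in KO and -0.49 (edgeR, SE 0.24, adjusted p = 0.0926) in WT, and its KO call was lost on leaving out any 1 of 9 libraries (edgeR adjusted p 0.0502 to 0.157). Atp5g2 matches the pseudogene Gm10175 over its whole length. Atp5g1 matches Gm10039 at 99.76% over 69.0% of a transcript, so the shares of the trio are uncertain.

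**Figure D4:**
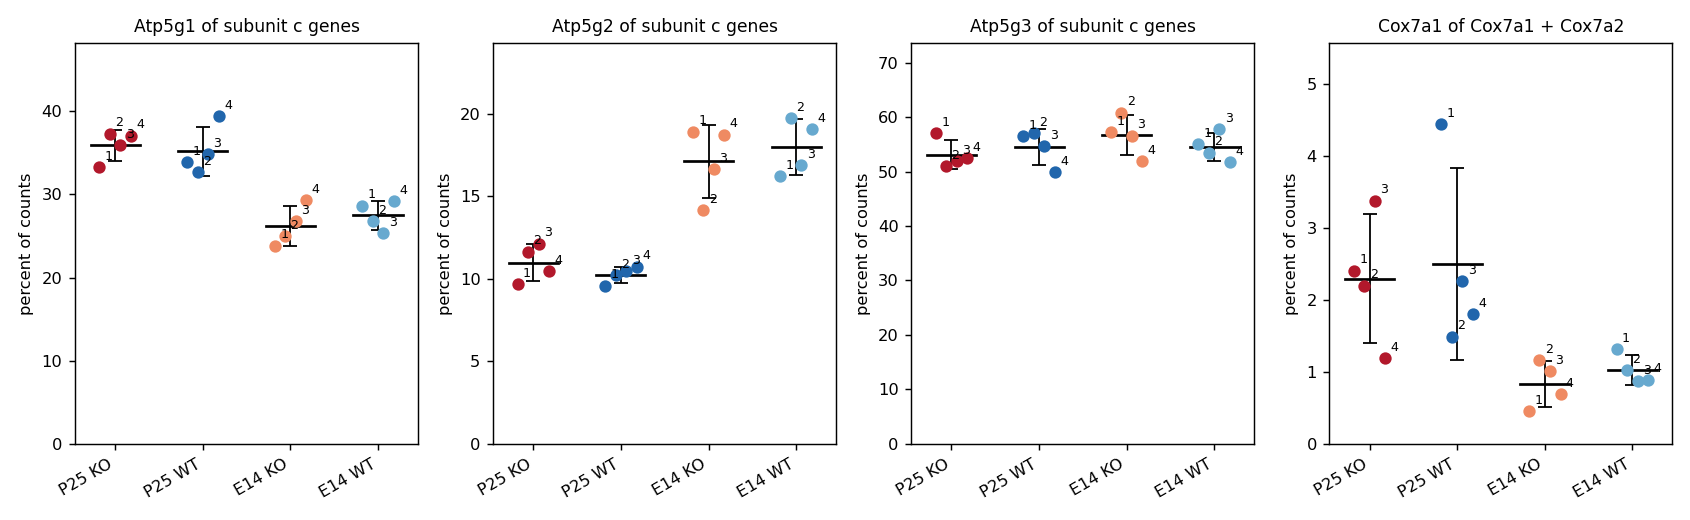
Share of the counts of the subunit c trio taken by Atp5g1, Atp5g2 and Atp5g3, and share of the Cox7a1 and Cox7a2 pair taken by Cox7a1, in percent, for each library by group. Numbered points are libraries, long bars are group means and error bars are 1 SD. Atp5g1 is higher and Atp5g2 lower at P25 in both genotypes, and Cox7a1 is higher at P25 while staying below 5%.

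Cox7a1 and Cox6a2 are the heart and skeletal muscle forms of Cox7a2 and Cox6a1. Cox7a1 stood at 2.31, 3.10, 3.74 and 1.71 CPM in P25 KO against 0.758, 0.887, 0.990 and 0.857 CPM in E14 KO. P25 WT libraries had 5.07, 2.40, 2.01 and 3.71 CPM against 1.28, 0.793, 0.625 and 1.10 CPM in E14 WT. All P25 libraries were above all E14 libraries of their genotype, by a log2 fold change of 1.63 (edgeR, SE 0.36, adjusted p = 6.84e-04) in KO and 1.78 (edgeR, SE 0.36, adjusted p = 2.55e-04) in WT. Its share of the pair with Cox7a2 was 1.19 to 3.38% in P25 KO and 1.49 to 4.44% in P25 WT, against 0.461 to 1.17% in E14 KO and 0.870 to 1.32% in E14 WT. Cox6a2 had 67 counts over the 4 P25 KO libraries against 4 in E14 KO, a ratio of scaled counts of 13.4 (exact 95% interval 4.98 to 50.4). In P25 WT it had 53 counts against 2 in E14 WT, a ratio of 20.4 (5.37 to 172). These intervals cover counting error only. Cox8b, the muscle form of Cox8a, had 8 counts in P25 KO and 4 in P25 WT and 0 in both E14 groups. With the E14 total set to a floor of 3 counts, the ratio of scaled counts was 2.13 in KO and 1.02 in WT. Counting error at P25 is not in these ratios, and counts this low do not show a rise. Cox7b2 had 6 counts in each P25 group and 0 at E14, and Cox8c had 2 counts, both in E14 KO 4.

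The 16 genes of the muscle marker list were read beside these isoforms. For scale, 30.6% of all genes were higher and 29.2% lower at P25 in KO, and 29.7% and 29.8% in WT. Of 11 tested, 5 were higher and 2 lower in KO (median log2 fold change 1.04), and 4 were higher and 4 lower in WT (median -1.04). The list summed to 98.2 to 116 CPM in P25 KO and 100.2 to 151 CPM in P25 WT, against 17.4 to 29.4 CPM in E14 KO and 15.4 to 26.4 CPM in E14 WT. Most of that sum was Pvalb, a calcium buffer that sensory neurons also make, at a mean of 89.3 CPM in P25 KO and 104 CPM in P25 WT, against 4.80 CPM in E14 KO and 3.31 CPM in E14 WT. Of defining muscle genes, Ckm averaged 0.693 CPM in P25 KO and 0.328 CPM in P25 WT, Acta1 1.51 and 0.911 CPM, and Myh4 0.204 and 0.112 CPM. At E14 Myh4 was at 0 in every library, and Acta1 averaged 2.46 CPM in KO and 2.37 CPM in WT. Brown fat also uses Cox7a1 and Cox8b, and 2 of the 8 genes of its marker list could be tested. Both were higher at P25 in both genotypes: Cidea, a lipid droplet protein, rose by 0.89 (edgeR, SE 0.23, adjusted p = 0.00212) in KO and 1.18 (edgeR, SE 0.23, adjusted p = 1.65e-04) in WT, and the coactivator Ppargc1a, which other tissues also make, is given with the regulators. Of its defining genes, Ucp1 averaged at most 0.0329 CPM in any group and Elovl3 was at 0. The part of muscle or fat RNA in these isoform levels was not tested.

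Other isoforms showed no separation of stages. Cox4i2, a form linked to low oxygen, made up 0.386 ± 0.129% of its pair in P25 KO and 0.363 ± 0.120% in P25 WT, against 0.475 ± 0.136% in E14 KO and 0.480 ± 0.128% in E14 WT (SD, n = 4 each). Cox6b2, the testis form of Cox6b1, made up 0.231 to 0.652% in P25 KO and 0.253 to 0.523% in P25 WT, against 0.251 to 1.14% in E14 KO and 0.397 to 1.06% in E14 WT. Ndufa4l2, a low-oxygen relative of Ndufa4, averaged 2.36% in P25 KO and 2.23% in P25 WT, against 3.09% in E14 KO and 4.01% in E14 WT, with overlap. Neither these genes nor Cox8a in KO passed the test of their own level, and Cox8a rose in WT by 0.67 (edgeR, SE 0.17, adjusted p = 0.00279).

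Genes that build or regulate the complexes were read from lists beside the members. Of all tested genes, 30.6% were higher and 29.2% lower at P25 in KO, and 29.7% and 29.8% in WT. Of 4 tested subunits or electron carriers whose symbols the rule misses, Cycs (cytochrome c), Ndufab1 and Usmg5 rose in WT, by 0.56, 0.65 and 0.62, with log2 fold changes of 0.02, 0.39 and -0.23 in KO, and Cyc1 (cytochrome c1) was not called in either. Complex I assembly factors had 1 of 18 higher and 3 lower in KO, and 6 higher and 2 lower in WT. In WT Ndufaf5 rose by 1.04 (edgeR, SE 0.24, adjusted p = 8.67e-04) and Tmem126b by 0.81. In KO Tmem186 and Dmac1 fell by 0.64 and 0.60. Of 29 complex IV assembly factors, 4 were higher and 3 lower in KO, and 11 were higher and 2 lower in WT. Cox17, the copper carrier of complex IV assembly, rose by 1.37 (edgeR, SE 0.27, adjusted p = 2.09e-04) in KO and 1.63 (edgeR, SE 0.27, adjusted p = 3.45e-05) in WT, whereas Cox19 fell by 1.37 in KO. Of 6 complex III factors, 2 were higher in KO and 4 in WT, among them Uqcc1 at 0.66 and 0.81. Of 4 complex II factors, Sdhaf1 fell by 0.95 in KO and Sdhaf2 rose by 0.59 in WT. Of 5 ATP synthase factors, 1 was higher and 1 lower in KO and 2 were higher and 1 lower in WT, with Atpaf1 rising by 1.15 in KO and 1.40 in WT.

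Of 25 regulators of mitochondrial gene supply, 5 were higher and 6 lower in KO, and 7 were higher and 5 lower in WT, each below the share of all genes given for its comparison and direction. Esrrg, an orphan nuclear receptor that binds promoters of oxidative genes, averaged 23.9 CPM in P25 KO against 1.43 CPM in E14 KO and 21.5 CPM in P25 WT against 1.11 CPM in E14 WT. It rose by 4.08 (edgeR, SE 0.41, adjusted p = 5.72e-08) in KO and 4.28 (edgeR, SE 0.42, adjusted p = 3.71e-08) in WT. Its relative Esrra rose by 1.72 in KO and 1.25 in WT. Their coactivator Ppargc1a rose by 1.42 (edgeR, SE 0.40, adjusted p = 0.00453) in KO and 1.10 (edgeR, SE 0.39, adjusted p = 0.0208) in WT. Nrf1, which binds promoters of many nuclear respiratory genes, fell by 1.16 in KO and 0.97 in WT, and Pprc1 fell by 1.45 in both. Tfam, which packs and transcribes mitochondrial DNA, fell by 0.65 in KO and had a log2 fold change of -0.41 in WT, where it was not called. Gabpa, an ETS factor of respiratory promoters, had -0.17 and -0.21 and was not called.

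Pathways next to the chain held calls in both directions. Beside the counts of each list stand 30.6% of all genes higher and 29.2% lower in KO, and 29.7% and 29.8% in WT. Of 19 tricarboxylic acid cycle genes, 10 were higher and 2 lower in KO and 12 were higher and 3 lower in WT, with medians of 0.57 and 0.64. Sucla2, a subunit of succinyl-CoA ligase, rose by 1.63 in KO and 1.75 in WT, and Idh2 fell by 1.57 and 1.61. Of 22 glycolysis genes, 12 were higher and 2 lower in KO and 13 were higher and 1 lower in WT, with medians of 0.56 and 0.53. The neuronal enolase Eno2 rose by 3.47 in KO and 3.35 in WT, and Aldoc, an aldolase rich in glia, by 2.60 and 3.01. Of 14 carriers and kinases that move adenine nucleotides and phosphate, 6 were higher and 3 lower in KO and 8 were higher and 1 lower in WT, with the mitochondrial creatine kinase Ckmt1 at 2.64 and 2.90 and the uncoupling protein Ucp2 at 2.54 and 2.27. Of 38 mitochondrial ribosomal protein genes, 2 were higher and 5 lower in KO and 7 were higher and 1 lower in WT. Of 20 import genes, 3 were higher and 4 lower in KO and 5 were higher and 1 lower in WT. Of 30 cytosolic ribosomal protein genes, 30 were lower in KO and 25 in WT, with medians of -1.37 and -0.92.

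The comparison of KO with WT asks whether loss of Nogo-A went with a different supply of these transcripts. At E14, 0 of 96 members passed the edgeR test, where 0.0199% of all genes did, and DESeq2 also called 0. An unadjusted edgeR p under 0.05 was reached by 9 of 96 members and by 735 of 15109 genes (4.86%). The nuclear members had a median log2 fold change of 0.25, with 78 of 83 above 0, and the mitochondrial members one of 0.27, with 11 of 13 above 0, beside -0.04 over all genes. In other lists, 30 of 30 cytosolic ribosomal protein genes (median 0.40) and 33 of 38 mitochondrial ones (median 0.18) lay above 0, and 11 of 12 macrophage markers below 0 (median -0.53). None of these list genes was called, and their part in the member medians was not tested. KO and WT libraries overlapped for every member, where 0.523% of all genes had every KO library higher and 1.11% every KO library lower. Without E14 WT 2 the mitochondrial median was 0.01.

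The members with the smallest p at E14 were Ndufa1, Ndufa12 and Uqcrh. Ndufa1 stood at 73.9, 32.4, 53.0 and 40.1 CPM in E14 KO against 36.4, 24.4, 31.4 and 37.0 CPM in E14 WT. Ndufa12 stood at 118, 64.9, 114 and 80.6 CPM in E14 KO against 84.8, 65.4, 47.8 and 61.7 CPM in E14 WT. Uqcrh stood at 284, 135, 227 and 218 CPM in E14 KO against 191, 119, 112 and 164 CPM in E14 WT. In each, E14 KO 1 was highest and E14 KO 2 lay within the WT range. The log2 fold changes were 0.62 (SE 0.24), 0.54 (SE 0.21) and 0.56 (SE 0.22), with an edgeR adjusted p of 0.942 for each. Among the mitochondrial genes, mt-Nd1 stood at 1832, 2637, 2353 and 874 CPM in E14 KO against 1161, 389.7, 1544 and 1761 CPM in E14 WT, a log2 fold change of 0.66 (edgeR, SE 0.34, adjusted p = 0.942) with 1 low library in each group.

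At P25, again 0 of 96 members passed the test in edgeR, where 0.0463% of all genes did (0.0199% higher and 0.0265% lower), and in DESeq2. An unadjusted edgeR p under 0.05 was reached by 0 of 96 members and by 282 of 15109 genes (1.87%). The nuclear members had a median log2 fold change of -0.20, with 81 of 83 below 0, and the mitochondrial members one of 0.38, with 11 of 13 above 0, beside -0.02 over all genes. Of cytosolic ribosomal protein genes 30 of 30 were below 0 (median -0.16), as were 37 of 38 mitochondrial ones (median -0.19) and 8 of 12 macrophage markers (median -0.07). Above 0 were 10 of 10 endothelial (median 0.27), 9 of 10 fibroblast (0.07), 8 of 9 erythroid (0.39) and 8 of 11 muscle markers (0.73). Sensory neuron markers were mixed, with 9 of 20 above 0 (-0.05), as were satellite glia markers, with 6 of 15 (-0.03). In these lists 0 genes were called, and their part in the member medians was not tested. Without P25 WT 4 the medians of the nuclear and mitochondrial members were -0.02 and 0.25. The ratio of the mitochondrial to the nuclear sum was 0.865 to 1.26 in P25 KO against 0.413 to 0.912 in P25 WT, with P25 WT 4 the lowest. At E14 that ratio was 0.286 to 1.16 in KO against 0.178 to 0.913 in WT.

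The smallest p at P25 belonged to Ndufs5, Uqcrb and Ndufa3. Ndufs5 stood at 67.7, 54.2, 85.4 and 60.2 CPM in P25 KO against 128, 69.8, 79.1 and 84.0 CPM in P25 WT, a log2 fold change of -0.43 (edgeR, SE 0.24, adjusted p = 1). Uqcrb and Ndufa3 had log2 fold changes of -0.34 and -0.37, each with an edgeR adjusted p of 1. For all 3 the groups overlapped. Uqcrc2 was the 1 member with every KO library below every WT library, at 124, 134, 149 and 147 CPM in P25 KO against 168, 163, 157 and 151 CPM in P25 WT, where 1.28% of all genes had that pattern. Its log2 fold change was -0.21 (edgeR, SE 0.18, adjusted p = 1). With every KO library above every WT library there were 0 members, against 2.05% of all genes.

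The stage by genotype interaction, which tests whether the stage effect differed between KO and WT, called 0 members and 0% of all genes. DESeq2 also called 0. An unadjusted edgeR p under 0.05 was reached by 18 of 96 members and by 647 of 15109 genes (4.28%). The stage effect was lower in KO than in WT for 86 of 96 members and for 6732 of all 15109 genes. The median interaction was -0.44 for nuclear members, with 80 of 83 below 0, and 0.01 for mitochondrial members, beside 0.05 over all genes. It was -0.59 for the cytosolic ribosomal protein genes, all 30 below 0, and -0.37 for the mitochondrial ones, with 35 of 38 below 0. The smallest p belonged to Uqcrb at -0.81 (SE 0.28), Ndufs5 at -0.95 (SE 0.33) and Ndufa1 at -0.95 (SE 0.34), with an edgeR adjusted p of 0.993 for each. Without P25 WT 4 and E14 WT 2 the nuclear median was -0.23.

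Transcript length and base composition were read beside these shifts. The nuclear members are short, with a median transcript length of 704 bases against 2312 for all tested genes, and 78 of 83 fall in the shortest of 4 equal bins of genes. All 13 mitochondrial members fall in the lowest of 4 equal bins by GC content. Over all genes of that GC bin the median log2 fold change was 0.05 for KO against WT at E14 and 0.08 at P25. It was 0.23 for the stage effect in KO, 0.18 in WT and 0.04 for the interaction. In P25 WT 4 the shortest bin lay 0.58 above the longest bin on the log2 scale, relative to the P25 mean, and in E14 WT 2 the bin of lowest GC minus the bin of highest GC was -1.29. Over all genes of the shortest bin the median log2 fold change was 0.07 for KO against WT at E14, -0.09 for KO against WT at P25, -0.04 for the stage effect in KO, 0.13 for the stage effect in WT and -0.16 for the interaction. With offsets for length and GC within each stage, the nuclear medians were 0.12 at E14, -0.14 at P25, 0.23 for the stage effect in KO, 0.46 in WT and -0.24 for the interaction, and 35 members were called higher and 6 lower in KO and 56 higher and 2 lower in WT. The part of length and GC in the member medians was not tested beyond these fits.

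**Figure D5:**
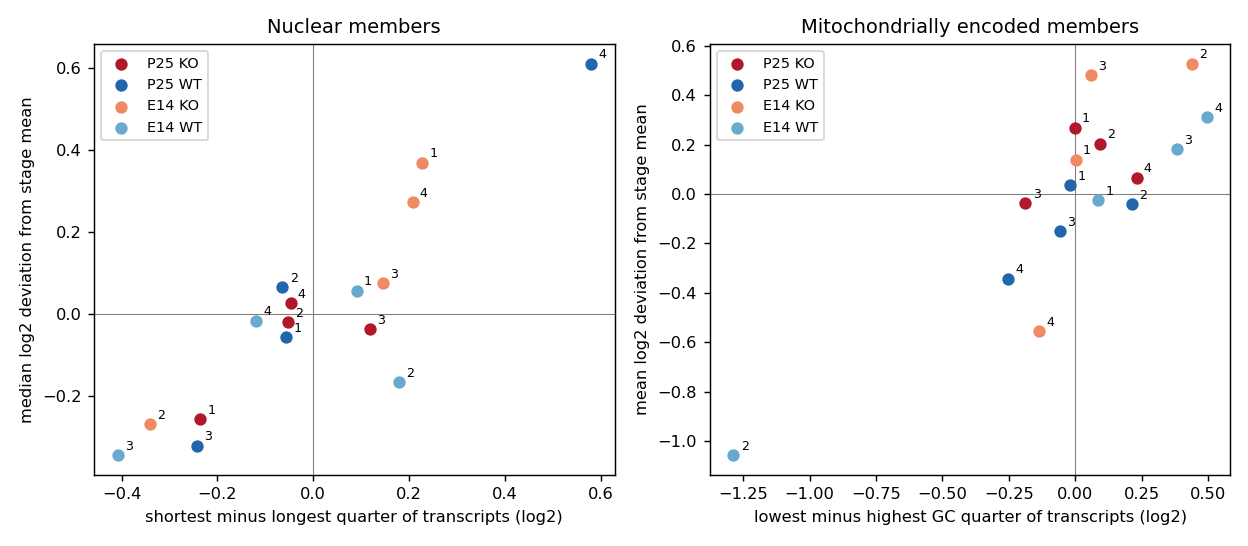
Median deviation of the nuclear members from their stage mean in each library (left), plotted against the difference between the shortest and the longest of 4 equal bins of genes, and mean deviation of the mitochondrial members (right) against the difference between the lowest and highest GC bins, all in log2 units. P25 WT 4 lies at the upper right of the left panel, at 0.58 for length, and E14 WT 2 at the lower left of the right panel, at -1.29 for GC.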

How the data were processed

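Ribonucleic acid from whole trigeminal ganglia was sequenced from TruSeq stranded mRNA libraries, per the labels' protocols. The authors deposited an estimated count for each gene, as whole numbers. Tools listed in the submitters' processing notes are kallisto 0.46, fastp 0.20.0 and DESeq2 1.32.0, with the build GRCm39. Neither their roles nor the strand setting and annotation were given in the sources used here. Such a count splits ambiguous reads by a model, which leaves members with near-identical copies uncertain.

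Groups and replicate numbers came from the sample titles. The tests used R 4.3.3 and edgeR 4.0.16, with TMM scaling, the filterByExpr filter (15109 of 25719 genes left), group means fitted to all 16 libraries at once, and quasi-likelihood F tests, adjusted by Benjamini-Hochberg over all tested genes. Called means an adjusted p under 0.05. The 5 comparisons were KO against WT at each stage, P25 against E14 in each genotype, and their interaction. Standard errors (SE) came from the F statistic. Levels are CPM from the TMM-scaled totals, and levels per kilobase use transcript lengths of GRCm38, which is not the authors' build. Near-identical copies were sought with BLAST+ 2.17.0 at 95% identity over 80% of a member. Atp5h, called higher at P25 in WT, also passed these limits, matching Gm10250 at 98.97% over 99.8%, so its counts are uncertain too. Matches over a smaller part were found for further members, not all of them named above. Among them are Ndufs5 with BC002163 (99.27% over 78.3%) and Uqcrb with Gm2962 (98.21% over 62.8%). Floors used 3 counts. Counting intervals cover counting error only.

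Alternatives were RLE scaling, DESeq2 1.42.0, unscaled library totals, totals without mitochondrial genes, the filter left out or made stricter, the replicate number as a block, summing same-numbered ganglia, the compared libraries only, offsets for length and GC (natural splines with 4 degrees of freedom, fitted to deviations from the stage mean), robust dispersions and leaving out each library. The offsets centred on all libraries, the fits without P25 WT 4 and E14 WT 2 and the robust fit were chosen after seeing the data. The fit was checked on simulated counts. Figures used Python 3.11.15, pandas 2.3.3 and matplotlib 3.10.9.

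The members and lists were chosen with earlier results of these data known. Named genes were all mitochondrial members, isoform sets, catalytic subunits, the 2 largest called changes each way per complex in the WT stage comparison at a mean of at least 1 CPM, the 3 smallest p per genotype test, and up to 2 called genes per list at a mean of at least 10 CPM with 8 fixed regulators and carriers. Ndufs7, Ndufa5, Ndufa13, Ndufa6, Ndufv3, both Atp5o entries, Cox7b2, Cox8c and the defining muscle and fat genes were named outside this rule, after their values were seen.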

Additional observations from a re-analysis of the deposited data

Results flagged for a closer look

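Of 240 groups of 4 libraries examined over the named members and complex sums, 8 held a library whose gap to its nearest neighbour took up more of the group's range than Dixon's 95% critical value allows, and chance gives about 1 in 20. In P25 KO 1 the nuclear members of complex IV summed to 1992 CPM against 2378 to 2448 CPM in the other P25 KO libraries. The nuclear members of complex V summed to 4458 CPM in P25 KO 1 against 5132 to 5265 CPM. Ndufa3, an accessory subunit of complex I, stood at 36.6 CPM in P25 KO 1 against 47.8 to 48.6 CPM. In P25 KO 3, Atp5a1 stood at 1288 CPM against 1130 to 1147 CPM in the others, and Ndufb4 at 59.65 CPM against 41.9 to 44.7 CPM. Atp5g1 stood at 273.1 CPM in P25 WT 4 against 109.9 to 133 CPM in the other P25 WT libraries, and at 136.1 CPM in E14 KO 4 against 88.6 to 96.6 CPM in the other E14 KO libraries. mt-Atp8 stood at 0.8254 CPM in P25 WT 3 against 0.464 to 0.523 CPM in the others.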

How the results depend on the processing

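KO against WT called 0 members at E14, at P25 and in the interaction under every alternative run. The count for P25 over E14 in KO, 18, moved by over 1.5 times under 5 alternatives: 31 with the compared libraries only, 41 with length and GC offsets centred on each stage, 33 with offsets centred on all libraries, 31 without P25 WT 4 and E14 WT 2, and 41 with the offsets of each stage and without those libraries. The WT count, 50, stayed within 1.5 times (DESeq2 gave 55 in WT and 22 in KO). Offsets centred on all libraries, which by construction also take out a stage trend on length and GC, brought the mitochondrial median to -0.17 in KO and -0.0432 in WT. Leaving out each library gave 14 to 27 calls in KO and 39 to 58 in WT. Nuclear medians over these were 0.02 to 0.23 in KO, 0.39 to 0.78 in WT, 0.17 to 0.40 for KO against WT at E14, -0.31 to -0.02 at P25 and -0.60 to -0.24 for the interaction. Mitochondrial medians were 0.45 to 0.86, 0.30 to 0.86, 0.01 to 0.57, 0.25 to 0.46 and -0.29 to 0.25 in the same order.

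With the replicate block, 23 members were called in KO (18 higher) and 50 in WT (49 higher), and 0 in the genotype tests and the interaction. The numbers are not taken as pairs, since same-numbered libraries correlated at 0.31, 0.22, -0.17 and 0.11 at P25 and at 0.07, -0.49, -0.08 and -0.37 at E14.

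The WT stage value of mt-Nd2 turned to -0.0415 with offsets centred on all libraries. The KO stage value of Ndufa1, -0.03, turned to 0.0050 with DESeq2, 0.0052 with RLE scaling, 0.0130 without a filter, 0.0282 with the block, 0.1122 with summed ganglia, 0.2475 with offsets, 0.1892 with offsets centred on all libraries and 0.0284 with offsets and without both libraries, and it ranged from -0.1718 to 0.2252 on leaving out 1 library. Why these values moved was not tested beyond the fits named. In both genotypes Ndufb3, Ndufa5, Ndufa13, Ndufa6, Ndufs7, Sdha, Cox7a1, Atp5d and Atp5s kept their calls in all 30 alternatives. Depth limits mt-Co2 to mt-Nd4l, Cox6a2, Cox7b2, Cox8b and Cox8c.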
